A study of Oryza sativa with 8 samples.

Results

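The core histone genes of rice, which encode the histones H2A, H2B, H3 and H4, were followed across the libraries of the shoot apical meristem. Members were the loci of the deposited table whose annotation names one of these histones or the histone core, leaving out histone-modifying enzymes, kinases and chaperones, with 1 transcript model kept per locus, the one with the highest mean. The rule gave 58 loci of 36819, of which 16 were H2A, 14 H2B, 17 H3 and 11 H4. They lay on all 12 chromosomes, most on chromosome 1 (11 loci) and chromosome 5 (9 loci). Of the 58, 55 passed the filter on low values and were tested, and 3 did not (Os03t0320875-00, annotated H2B.5, Os02t0542100-00, annotated H3, and Os05t0462900-00, annotated H4, each under 0.6 in every library). Among those tested, 6 were under the filter value of 1 in at least 1 library: 5 did not reach it in both Nipponbare libraries and passed with the help of the other groups, and 1 (Os09t0570850-00) reached it in Nipponbare alone. Their passing depended on the groups, so they are given as values below, and counts are given with and without them.

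Core histones package DNA into nucleosomes, in which DNA winds around an octamer made of H2A–H2B dimers and a tetramer of H3 and H4. Most copies are made in S phase, when new DNA has to be packaged, so plants carry many nearly identical genes for each class and express them strongly in dividing tissue such as the meristem. Some genes encode variants instead: H3.3 is deposited outside replication and marks transcribed genes, and the centromeric H3 forms the nucleosomes on which kinetochores assemble.

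The shoot apical meristem, the dividing tip from which leaves and panicle arise, was sampled for single-end RNA sequencing, giving 3 libraries labelled OsglHAT1-OE, 3 labelled GW6a-4.6 and 2 labelled Nipponbare. OsglHAT1-OE stands for plants transformed in the cultivar Nipponbare, and the labels give neither the promoter nor the number of lines. The line GW6a-4.6 is Nipponbare in which a chromosome segment was replaced by that of Kasalath, and the replaced segment may hold more genes than the one of interest. All 3 groups share the Nipponbare background, and GW6a and OsglHAT1 name 1 gene for a histone H4 acetyltransferase. The comparisons show how transcripts of the meristem differ between the groups, here those of the histones, the substrate of that enzyme among them. The part of that gene in any difference was not tested. Nothing in the labels says whether the libraries came from separate plants, nor gives growth stage or batch, so the p-values measure the spread between these libraries only.

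The value of a transcript model was taken as the number of read alignments divided by the library total and scaled as for RPM. Library totals were inferred by taking the smallest positive value of each library as 1 read. They came to 6783985 to 7667853 reads (OsglHAT1-OE), 5231450 to 5602109 (GW6a-4.6) and 5207710 to 6836650 (Nipponbare). On these totals, 3 reads are worth 0.391 to 0.576. On average, each read was counted 2.41 times in replicate 3 labelled OsglHAT1-OE, which stood apart, and 2.66 to 2.69 times elsewhere. This is what counting a read at each model it aligns to would give, so near-identical histone genes may share reads and cannot be told apart with certainty. Values are not per length, so levels of different genes are not compared. Shares of a summed signal describe that signal, not numbers of transcripts, and are compared between groups only. The transcript of the GW6a/OsglHAT1 gene itself (Os06t0650300-00) went against the labels: its value was 13.2, 8.87 and 10.02 in the libraries labelled OsglHAT1-OE, 2642, 2573 and 2913 in those labelled GW6a-4.6 and 1.46 and 2.30 in Nipponbare. It was highest by far in the libraries labelled GW6a-4.6, so groups are called by their labels here and every direction below holds for the labels as deposited. The meristem genes OSH1, OSH15, OSH71, OSH6 and OSH43 were detected in every library.

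The summed values of all 4 histone classes were highest, by group mean, in the libraries labelled OsglHAT1-OE, next in those labelled GW6a-4.6 and lowest in Nipponbare. The values of the 58 loci added up to 16281, 15556 and 13671 in the libraries labelled OsglHAT1-OE, 12454, 10361 and 11086 in those labelled GW6a-4.6 and 4534 and 4338 in Nipponbare. The groups did not overlap. These sums were 0.744% to 0.784% of the signal summed over all loci in the libraries labelled OsglHAT1-OE, 0.504% to 0.604% in those labelled GW6a-4.6 and 0.210% to 0.219% in Nipponbare. In bulk tissue, fewer cells of a type and less RNA per cell cannot be told apart, and a read shared by several histone loci enters a sum more than once.

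The class sums, given as descriptions without a test, differed in how far they stood apart. H4 averaged 4201 ± 404 in the libraries labelled OsglHAT1-OE, 3015 ± 429.9 in those labelled GW6a-4.6 (SD, n = 3 each) and 978 ± 48.1 in Nipponbare (SD, n = 2), which was 4.3 times and 3.08 times the Nipponbare mean. H2B averaged 4248 ± 314, 3117 ± 256 and 1182 ± 80.8 in the same order of groups, ratios of 3.59 and 2.64 to Nipponbare. The H2A sum, 2549 ± 330.2, 1981 ± 182 and 776 ± 47.1, had ratios of 3.29 and 2.55. The ratios for H3 were the lowest of the 4 classes at 2.78 and 2.12, with means of 4172 ± 307, 3187 ± 197 and 1500 ± 59. As a share of the summed core histone signal, H3 made up 27.5% ± 0.44 in the libraries labelled OsglHAT1-OE, 28.3% ± 0.9 in those labelled GW6a-4.6 and 33.8% ± 0.27 in Nipponbare, while H4 made up 27.7% ± 0.46, 26.6% ± 1.26 and 22.1% ± 1.78.

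**Figure D1:**
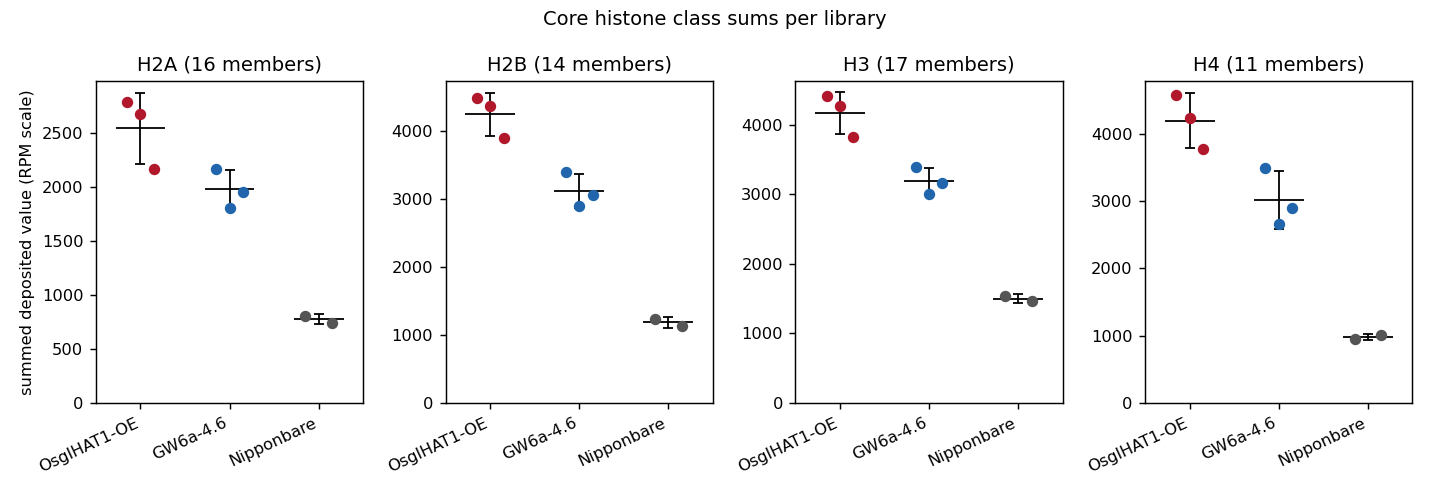
Summed deposited value of the members of each core histone class (y axis, RPM scale, as deposited) in the 3 libraries labelled OsglHAT1-OE, the 3 labelled GW6a-4.6 and the 2 of Nipponbare; points are libraries, the wide line is the group mean and the bar its SD. Every line library lies above both Nipponbare libraries, and the lines meet only for H2A, where 1 library labelled OsglHAT1-OE (2173) lies just under 1 labelled GW6a-4.6 (2174).

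Locus by locus, 51 of the 55 tested members were called higher and 1 lower in the libraries labelled OsglHAT1-OE than in Nipponbare by limma (Benjamini-Hochberg adjusted p under 0.05 over all 31487 tested loci). That was 92.7% of the tested members called higher, where 22.8% of all tested loci were called higher and 29.7% lower. The libraries labelled GW6a-4.6 had 48 members called higher and 1 lower than Nipponbare, or 87.3% higher, where 26.7% of all tested loci were called higher and 19.5% lower. The groups did not overlap at 53 members for OsglHAT1-OE and 49 for GW6a-4.6, against 66.9% and 64.5% of all tested loci. The median log2 change over the tested members, on the log2(value + 1) scale that the test used, was 1.88 for OsglHAT1-OE and 1.46 for GW6a-4.6, beside -0.08 and 0.07 over all tested loci. With members near the detection floor set at their bounds, the OsglHAT1-OE median was 1.90. Among the 49 members at 1 or more in every library, a restriction added after seeing the data, 47 were called higher and 0 lower in each line (95.9% higher), where 23.7% of the 26596 loci under the same restriction were called higher and 30.5% lower for OsglHAT1-OE, and 27.3% higher and 20.1% lower for GW6a-4.6. The 2 not called are the H2A loci Os03t0721900-00 and Os03t0144700-00. The members' median log2 change was then 1.97 and 1.46. Both comparisons use the same 2 Nipponbare libraries, so they are not independent of each other.

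**Figure D2:**
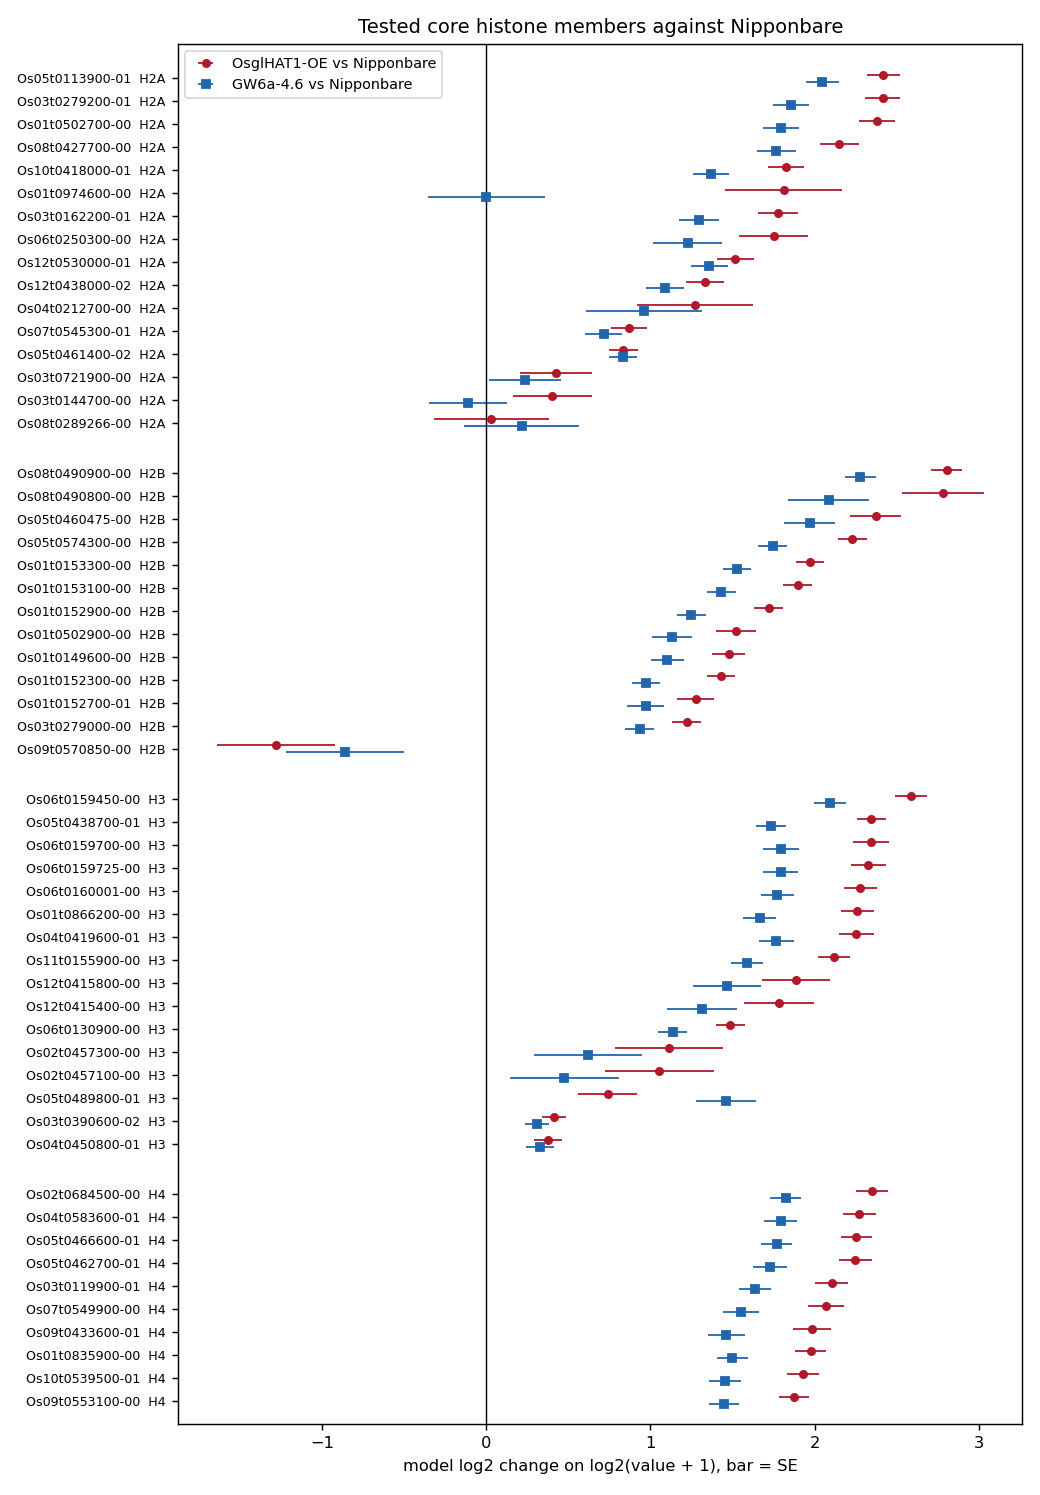
Model log2 change against Nipponbare on the log2(value + 1) scale (x axis) of the 55 tested members (y axis, grouped by class and ordered by the OsglHAT1-OE change); red circles are the libraries labelled OsglHAT1-OE, blue squares those labelled GW6a-4.6, and bars are 1 SE of the limma fit. All 10 H4 members lie in narrow bands (1.87 to 2.35 and 1.45 to 1.82), whereas H2A spreads down to 0.03 and -0.11, H3 to 0.37 and 0.31 and H2B, through Os09t0570850-00, to -1.28 and -0.86.

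The H2A genes, whose protein pairs with H2B in the outer dimers, had the smallest share of tested loci called higher among the 4 classes. Of 16 tested, 13 were called higher in the libraries labelled OsglHAT1-OE than in Nipponbare (1.79-fold to 5.44-fold) and 12 in those labelled GW6a-4.6 (1.66-fold to 4.2-fold), with none lower. The first range leaves out Os01t0974600-00, which is among the 13 but had 0 reads in Nipponbare and so has no ratio. Called higher were thus 81.2% and 75% of the tested H2A loci, where 22.8% and 26.7% of all tested loci were. The median log2 changes were 1.63 and 1.16. Of the 13 at 1 or more in every library, 11 were called higher in each line. Os04t0212700-00, called higher in both lines, did not reach 1 in both Nipponbare libraries, so no p is given. It had 3.38, 4.96 and 3.24 in the libraries labelled OsglHAT1-OE and 3.93, 0.956 and 5.07 in those labelled GW6a-4.6. Nipponbare had 1.02 and 0.96. The GW6a-4.6 call at that locus held under 13 of 20 alternatives. Os03t0279200-01 measured 704, 659 and 517 in the libraries labelled OsglHAT1-OE, 480.4, 368 and 425 in those labelled GW6a-4.6 and 130.03 and 103 in Nipponbare. Its means were 5.38 and 3.64 times the Nipponbare mean, and the 3 groups did not overlap. Os01t0502700-00 measured 355, 347 and 275 in the libraries labelled OsglHAT1-OE, 245, 197 and 208 in those labelled GW6a-4.6 and 69.2 and 54.5 in Nipponbare, a rise of 5.26-fold and 3.5-fold over Nipponbare.

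Another H2A gene, Os05t0461400-02, annotated H2A.2.1, did not follow that order. It measured 404, 389.8 and 337 in the libraries labelled OsglHAT1-OE, 386, 352 and 388 in those labelled GW6a-4.6 and 216 and 204 in Nipponbare. Both lines stood above Nipponbare, 1.79-fold (adjusted p = 1.86e-10) and 1.78-fold (adjusted p = 2.85e-10), and the lines overlapped each other. The log2 difference of OsglHAT1-OE from GW6a-4.6 was 0.003 with an SE of 0.08 (adjusted p = 0.981), and it was called higher at 0.16 under median-ratio scaling (adjusted p = 0.0406).

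The H2A loci that were not called against Nipponbare all had values under 20. Os03t0721900-00 had 16, 18.9 and 16.1 in the libraries labelled OsglHAT1-OE, 18.7, 9.75 and 17.4 in those labelled GW6a-4.6 and 11.6 and 13.2 in Nipponbare, with log2 changes of 0.42 (adjusted p = 0.106) and 0.24 (adjusted p = 0.404). At Os03t0144700-00 the values were 15.9, 14.9 and 10.2 in the libraries labelled OsglHAT1-OE, 11.2, 9.56 and 6.88 in those labelled GW6a-4.6 and 8.78 and 11.1 in Nipponbare, and the changes were 0.40 (adjusted p = 0.157) and -0.11 (adjusted p = 0.725). The libraries labelled GW6a-4.6 overlapped Nipponbare at both loci, and those labelled OsglHAT1-OE overlapped it at Os03t0144700-00 alone. In contrast to limma, edgeR's quasi-likelihood test on whole reads called both higher in the libraries labelled OsglHAT1-OE than in Nipponbare (adjusted p = 0.0233 and 0.0382). Os08t0289266-00 stayed under 3 in every library, with means of 1.24 in the libraries labelled OsglHAT1-OE, 1.64 in those labelled GW6a-4.6 and 1.23 in Nipponbare. Os01t0974600-00 was seen in 1 group alone: 22, 26 and 9 reads in the libraries labelled OsglHAT1-OE and 0 in the other 5. Taking 3 reads per group as the floor, its mean was at least 10.6-fold higher than in Nipponbare and at least 14.4-fold higher than in the libraries labelled GW6a-4.6. It entered the test only through the libraries in which it is high, so no p is given.

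H2B, the partner of H2A in the dimer, rose at 12 of 13 tested loci in each line. That was 92.3% called higher, where 22.8% (OsglHAT1-OE) and 26.7% (GW6a-4.6) of all tested loci were. Against Nipponbare the rises were 2.34-fold to 11.97-fold in the libraries labelled OsglHAT1-OE (class median log2 change 1.72) and 1.92-fold to 7.08-fold in those labelled GW6a-4.6 (1.25). Os01t0153100-00, annotated H2B-3, measured 706, 698 and 612 in the libraries labelled OsglHAT1-OE, 526, 438 and 497 in those labelled GW6a-4.6 and 193 and 167 in Nipponbare. Os01t0153300-00, annotated H2B.1, gave 673, 678 and 599.5 in the libraries labelled OsglHAT1-OE, 521, 429.5 and 483 in those labelled GW6a-4.6 and 174 and 155 in Nipponbare. The 3 groups did not overlap at either, and the ratios to Nipponbare were 3.74 and 3.95 for OsglHAT1-OE and 2.71 and 2.9 for GW6a-4.6.

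Among all members, 2 neighbouring H2B loci on chromosome 8 were among the 3 with the largest log2 changes in each line. Os08t0490900-00, annotated H2B.2, measured 582, 556 and 476 in the libraries labelled OsglHAT1-OE, 407, 362 and 349 in those labelled GW6a-4.6 and 83.7 and 68.7 in Nipponbare. Its log2 change was 2.80 (SE 0.10, adjusted p = 2.34e-24) and 2.28 (SE 0.10, adjusted p = 1.59e-21). Its neighbour Os08t0490800-00 had 14.4, 14.3 and 13 in the libraries labelled OsglHAT1-OE, 6.96, 9.18 and 8.51 in those labelled GW6a-4.6 and 1.17 and 1.15 in Nipponbare. Its means were 11.97 and 7.08 times that of Nipponbare, where only 8 and 6 reads were counted. Os05t0574300-00, also annotated H2B.2, measured 644, 606 and 534 in the libraries labelled OsglHAT1-OE, 467, 399 and 409.8 in those labelled GW6a-4.6 and 132 and 120.2 in Nipponbare, or 4.73 and 3.38 times Nipponbare.

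The H2B locus Os09t0570850-00 was the 1 member called lower than Nipponbare in either line. It had 0 reads in all 3 libraries labelled OsglHAT1-OE, 0, 4 and 2 in those labelled GW6a-4.6 and 12 and 6 in Nipponbare. The mean in the libraries labelled OsglHAT1-OE was at least 10.3-fold lower than in Nipponbare. It passed the filter through the Nipponbare libraries alone, in which it is high, so no p is given, and without either of them it no longer passed.

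H3, which with H4 forms the inner tetramer, held both strongly and weakly changed loci. All 16 tested H3 members were called higher in the libraries labelled OsglHAT1-OE (1.3-fold to 6.12-fold, median log2 change 2.002) and 14 in those labelled GW6a-4.6 (1.24-fold to 4.34-fold, median 1.53). That was 100% and 87.5%, where 22.8% and 26.7% of all tested loci were called higher. The largest log2 change was at Os06t0159450-00, which measured 324, 313 and 275 in the libraries labelled OsglHAT1-OE, 231, 202 and 213 in those labelled GW6a-4.6 and 53 and 46.5 in Nipponbare. Its log2 change was 2.59 (adjusted p = 5.93e-23) and 2.10 (adjusted p = 4.88e-20). Os05t0438700-01 measured 628, 577 and 526 in the libraries labelled OsglHAT1-OE, 402, 344 and 385 in those labelled GW6a-4.6 and 122 and 104 in Nipponbare. Os01t0866200-00 measured 587, 565 and 479 in the libraries labelled OsglHAT1-OE, 394, 314 and 372 in those labelled GW6a-4.6 and 126 and 100.2 in Nipponbare. At these 3 loci the groups did not overlap. Os06t0130900-00 rose less, with 660.5, 621 and 531 in the libraries labelled OsglHAT1-OE, 524, 437 and 456 in those labelled GW6a-4.6 and 211 and 217 in Nipponbare, ratios of 2.82 and 2.21. The H3 loci not called in the libraries labelled GW6a-4.6 were the neighbours Os02t0457100-00 and Os02t0457300-00, whose means were 2.36 and 2.30 in the libraries labelled OsglHAT1-OE, 1.27 and 1.34 in those labelled GW6a-4.6 and 0.604 and 0.507 in Nipponbare. Neither reached the filter value in a Nipponbare library, so no p is given for them. The 14 H3 members at 1 or more in every library were all called higher in each line.

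The locus annotated H3.3, the replacement variant, was among the least changed of the class. Os03t0390600-02 measured 737, 743 and 702 in the libraries labelled OsglHAT1-OE, 705, 689.7 and 642 in those labelled GW6a-4.6 and 547 and 546 in Nipponbare. Both lines stood above Nipponbare without overlap, by log2 changes of 0.41 (SE 0.07, adjusted p = 1.13e-05) and 0.31 (SE 0.07, adjusted p = 0.0006). Os04t0450800-01, annotated only H3 and singled out after its values were seen, measured 292, 299 and 280.1 in the libraries labelled OsglHAT1-OE, 286, 274 and 283 in those labelled GW6a-4.6 and 232 and 215 in Nipponbare. Its changes were 0.37 (adjusted p = 0.000251) and 0.33 (adjusted p = 0.00139), and the GW6a-4.6 call was lost without Nipponbare replicate 2 (adjusted p = 0.0585).

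The H3 sum split unevenly between these 2 loci and the rest, a split made after the values were seen and given without a test. Together the 2 summed to 1018 ± 32 in the libraries labelled OsglHAT1-OE, 959.98 ± 33.2 in those labelled GW6a-4.6 and 771 ± 12.3 in Nipponbare, or 1.32 and 1.25 times Nipponbare. The other 15 H3 loci summed to 3154 ± 278, 2227 ± 184 and 729 ± 46.7, which was 4.32 and 3.05 times Nipponbare. Leaving out loci with small changes raises the ratio of the rest by construction. The 2 loci made up 24.5% ± 1.17 of the H3 sum in the libraries labelled OsglHAT1-OE, 30.2% ± 1.7 in those labelled GW6a-4.6 and 51.4% ± 1.2 in Nipponbare.

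Centromeric H3 was highest in the libraries labelled GW6a-4.6. Os05t0489800-01 measured 21.6, 18.3 and 18.1 in the libraries labelled OsglHAT1-OE, 37.5, 30.6 and 29.7 in those labelled GW6a-4.6 and 10.1 and 12.3 in Nipponbare, and none of the groups overlapped. Means were 19.3 ± 1.95, 32.6 ± 4.26 and 11.2 ± 1.55 in that order. Against Nipponbare it rose in both, by log2 changes of 0.74 (SE 0.18, adjusted p = 0.000728) in the libraries labelled OsglHAT1-OE and 1.46 (SE 0.18, adjusted p = 1.41e-08) in those labelled GW6a-4.6.

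**Figure D3:**
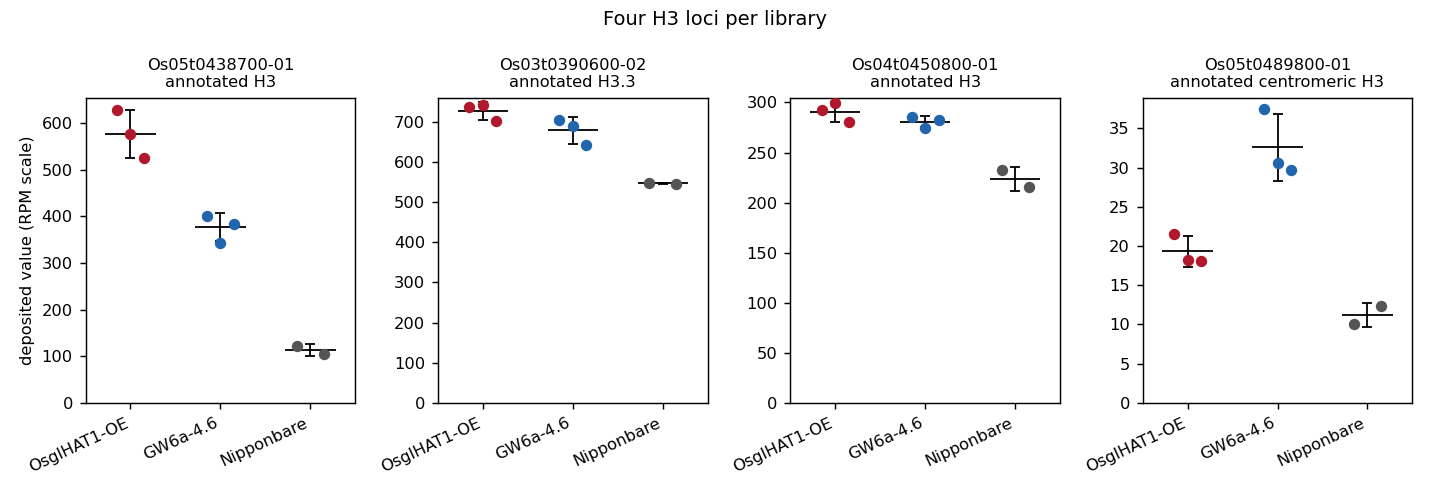
Deposited value per library (y axis, RPM scale, as deposited, each panel on its own scale from 0) of 4 H3 loci in the libraries labelled OsglHAT1-OE, GW6a-4.6 and Nipponbare; points are libraries, the wide line is the group mean and the bar its SD. Os05t0438700-01 stands at 5.12 and 3.34 times Nipponbare, the H3.3-annotated locus and Os04t0450800-01 at 1.24 to 1.33 times, and centromeric H3 is highest in the libraries labelled GW6a-4.6.

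H4, the histone that the GW6a/OsglHAT1 protein acetylates, had the narrowest range of changes of the 4 classes. All 10 tested H4 loci rose in both lines, 3.69-fold to 5.16-fold in the libraries labelled OsglHAT1-OE and 2.76-fold to 3.59-fold in those labelled GW6a-4.6. That was 100% called higher in each line, where 22.8% (OsglHAT1-OE) and 26.7% (GW6a-4.6) of all tested loci were. The groups did not overlap at any of the 10. Lack of overlap with Nipponbare was common, at 66.9% (OsglHAT1-OE) and 64.5% (GW6a-4.6) of all tested loci. Os09t0553100-00 measured 619, 564 and 521 in the libraries labelled OsglHAT1-OE, 488, 380.2 and 407 in those labelled GW6a-4.6 and 149 and 159 in Nipponbare. Os01t0835900-00 measured 587, 534 and 467 in the libraries labelled OsglHAT1-OE, 437, 339 and 365 in those labelled GW6a-4.6 and 133 and 133 in Nipponbare. At Os10t0539500-01 the values were 525, 489 and 433 in the libraries labelled OsglHAT1-OE, 409, 302 and 334 in those labelled GW6a-4.6 and 119.7 and 132 in Nipponbare. The log2 changes at these 3 loci were 1.87, 1.98 and 1.93 for OsglHAT1-OE and 1.45, 1.498 and 1.46 for GW6a-4.6, each with an SE of 0.09 or 0.10. H4 is the most conserved of the core histones, so its loci may share many reads, and they may not be 10 separate measurements.

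Set against each other, the line labelled OsglHAT1-OE stood above the line labelled GW6a-4.6 at most core histone loci. Of 55 tested members, 39 were called higher and 1 lower, 70.9% higher where 7.69% of all tested loci were called higher and 24.7% lower. Of the 49 members at 1 or more in every library, 38 were called higher and 1 lower, or 77.6% higher beside 8.31% higher and 25.4% lower of all loci so restricted. The groups did not overlap at 41 members, against 42.7% of all tested loci. By class, 10 of 10 H4 loci were called higher, 12 of 13 H2B, 9 of 16 H3 and 8 of 16 H2A, with class median log2 differences of 0.48, 0.45, 0.49 and 0.38. The smallest adjusted p fell at Os05t0438700-01 (H3), with a log2 difference of 0.61 (SE 0.08, adjusted p = 1.30e-07). Next came Os01t0866200-00 (H3) at 0.59 (adjusted p = 1.59e-06), Os08t0490900-00 (H2B.2) at 0.53 (adjusted p = 6.10e-06) and Os05t0574300-00 (H2B.2) at 0.48 (adjusted p = 6.98e-06).

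Centromeric H3 was the one member called lower in the libraries labelled OsglHAT1-OE than in those labelled GW6a-4.6. Its log2 value fell by 0.72 (SE 0.16, adjusted p = 0.000556), and the call held under all 21 alternatives run for it, between -0.80 and -0.49. At the H3.3-annotated locus the difference was 0.10 (SE 0.07, adjusted p = 0.261) and at Os04t0450800-01 0.05 (SE 0.07, adjusted p = 0.675). Under median-ratio scaling both were called higher, at 0.25 (adjusted p = 0.000844) and 0.20 (adjusted p = 0.012).

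The scaling between libraries bears on this comparison, because the median of all tested loci was -0.13 for OsglHAT1-OE against GW6a-4.6 as deposited and 0.01 after median-ratio scaling. Over all loci, 2422 were called higher and 7787 lower as deposited, and 5889 and 5857 after that scaling. The members' median log2 difference was 0.47 as deposited and 0.62 after scaling, when 48 were called higher and 1 lower. Without replicate 3 labelled OsglHAT1-OE, 43 were called higher and 1 lower, with a median of 0.55.

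**Figure D4:**
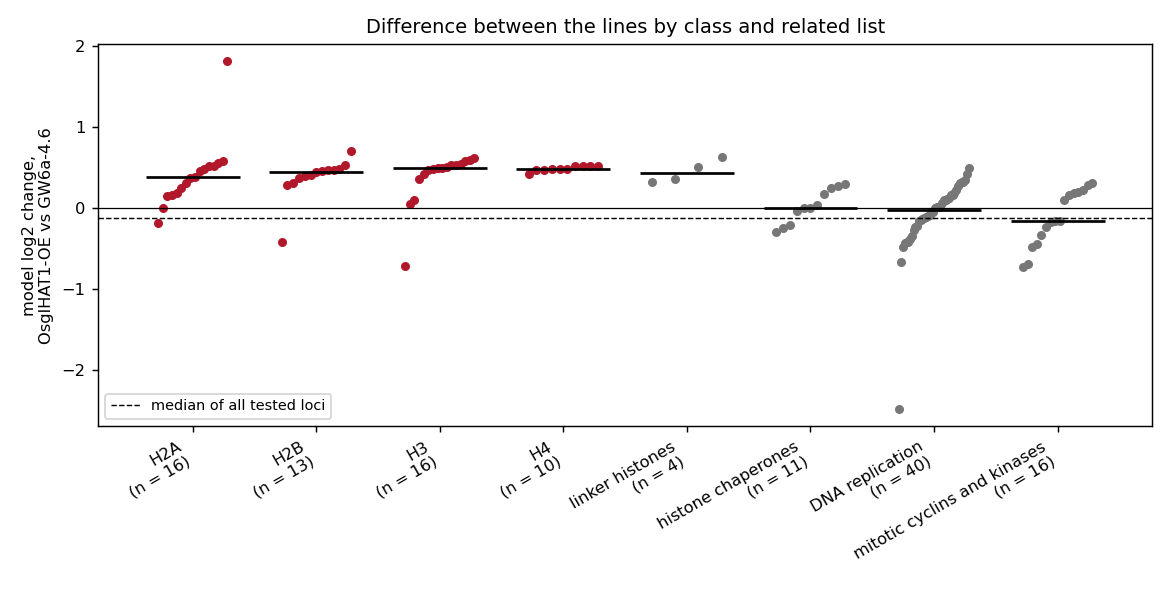
Model log2 difference of the libraries labelled OsglHAT1-OE from those labelled GW6a-4.6 on the log2(value + 1) scale (y axis) for tested loci of each core histone class (red) and of 4 related lists (grey); points are loci, thick lines are medians, and the dashed line is the median of all tested loci (-0.13). The class medians are 0.38 to 0.49, near the linker histone median of 0.43, while the chaperone, replication and mitotic medians lie between -0.16 and 0 and move to 0.12 for replication and -0.01 for the mitotic list under median-ratio scaling.

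Histone genes that neighbour each other did not always share a ratio. Taking loci whose numbers lie within a step of 1000 as neighbours, the largest run was 5 H2B loci on chromosome 1 (Os01t0152300-00 to Os01t0153300-00), which stood at 2.46 to 3.95 times Nipponbare in the libraries labelled OsglHAT1-OE and 1.97 to 2.9 times in those labelled GW6a-4.6. A run of 4 H3 loci on chromosome 6 (Os06t0159450-00 to Os06t0160001-00) stood at 4.94 to 6.12 and 3.48 to 4.34 times. On chromosome 5, the H2B.11-annotated Os05t0460475-00 was 5.6 and 4.22 times Nipponbare, and its neighbour Os05t0461400-02, annotated H2A.2.1, 1.79 and 1.78 times. An H2A and H2B pair on chromosome 3, Os03t0279200-01 and Os03t0279000-00, likewise differed, at 5.38 and 2.34 times in the libraries labelled OsglHAT1-OE and 3.64 and 1.92 times in those labelled GW6a-4.6.

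Linker histones, which bind the DNA between nucleosomes, rose as well. All 4 H1 loci were called higher in each comparison, with median log2 changes of 2.02 (OsglHAT1-OE against Nipponbare), 1.60 (GW6a-4.6 against Nipponbare) and 0.43 (OsglHAT1-OE against GW6a-4.6). Of all tested loci, 22.8%, 26.7% and 7.69% were called higher in these comparisons, in that order. Between the lines, 3 to 4 of the H1 loci were called over the alternatives. Os03t0799000-01 measured 725, 698 and 534 in the libraries labelled OsglHAT1-OE, 523, 395 and 457 in those labelled GW6a-4.6 and 104 and 94.1 in Nipponbare, ratios of 6.59 and 4.63 to Nipponbare. Os04t0253000-01 rose 4.14-fold and 2.66-fold, and Os07t0184800-01, annotated a variant of H1, 3.68-fold and 2.86-fold.

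Histone chaperones escort histones to and from DNA. Of 16 loci on the histone chaperone list, 11 were tested, and in the libraries labelled OsglHAT1-OE 2 were called higher and 4 lower than in Nipponbare (median log2 change -0.20). In those labelled GW6a-4.6, 2 were called higher and 6 lower (median -0.32), and 4 were called in all without Nipponbare replicate 2. The shares called were 18.2% higher and 36.4% lower for OsglHAT1-OE, close to the 22.8% and 29.7% of all tested loci, and 18.2% higher and 54.5% lower for GW6a-4.6, beside 26.7% and 19.5%. The SSRP1 locus Os05t0182600-01, of the FACT complex that moves nucleosomes aside for polymerases, measured 84.8, 89.3 and 76.4 in the libraries labelled OsglHAT1-OE, 90.3, 112 and 107 in those labelled GW6a-4.6 and 144 and 141 in Nipponbare, and its log2 value fell by 0.77 in the libraries labelled OsglHAT1-OE (adjusted p = 2.16e-07) and by 0.47 in those labelled GW6a-4.6 (adjusted p = 0.000524). The nucleosome assembly protein Os04t0459700-02 fell by 0.53 in both (adjusted p = 0.000104 and 0.000132). Other loci with these names differed. The other SSRP1 locus, Os01t0184900-02, averaged 417 (OsglHAT1-OE), 419 (GW6a-4.6) and 407 (Nipponbare) and was called in neither line. Of the other tested nucleosome assembly loci, Os02t0576700-01 was called lower in both lines and Os05t0539700-01 was called in neither. The SPT16 loci of FACT, Os08t0404350-00 and Os08t0404400-01, were called lower in the libraries labelled GW6a-4.6 alone. Os09t0551600-01, annotated HMGd1 and on the list through its annotated alias as an assembly factor, rose 1.68-fold and 1.48-fold. The other locus called higher in both lines was the anti-silencing protein Os05t0553800-01. Its log2 changes were 0.73 in the libraries labelled OsglHAT1-OE (adjusted p = 4.65e-05) and 0.44 in those labelled GW6a-4.6 (adjusted p = 0.0113).

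DNA replication genes, active in the same phase of the cell cycle as most histone genes, rose at most loci, with a smaller median change than the histones. Of 40 tested, 30 were called higher and 2 lower in the libraries labelled OsglHAT1-OE than in Nipponbare (median log2 change 0.82), and 29 and 2 in those labelled GW6a-4.6 (median 0.80). That was 75% and 72.5% called higher, where 22.8% and 26.7% of all tested loci were. Called lower were 5% in each, where 29.7% and 19.5% of all tested loci were. Replication protein A1 (Os03t0214100-01), which coats single-stranded DNA at forks, measured 321, 289.8 and 266 in the libraries labelled OsglHAT1-OE, 250.3, 267 and 267 in those labelled GW6a-4.6 and 104 and 82.6 in Nipponbare. The rises were 3.14-fold and 2.8-fold, and 3.5-fold and 3.36-fold for the replication protein A subunit Os02t0829100-01. Mitotic cyclins and kinases, 16 tested, were called higher at 11 and 15 loci and lower at none in the libraries labelled OsglHAT1-OE and GW6a-4.6 (medians 0.77 and 1.05). That was 68.8% and 93.8% called higher, beside the same 22.8% and 26.7% of all tested loci. The list took in A-type and B-type cyclins by name, so not all of its loci need act in mitosis. Cyclin-A3-1 (Os03t0607600-00) measured 55.8, 54.5 and 44.7 in the libraries labelled OsglHAT1-OE, 40.3, 40.1 and 46.4 in those labelled GW6a-4.6 and 9.07 and 6.14 in Nipponbare. Cyclin-B1-1 (Os01t0805600-01) averaged 137 ± 11, 154 ± 10.6 and 66 ± 4.99 in the same order of groups. The cyclin A-like Os12t0502300-01 rose 3.28-fold and 2.87-fold.

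Between the lines, the replication and mitotic lists were called about as often as all tested loci on the deposited scale. There 70.0% and 68.8% of their tested loci were not called, beside 67.6% of all. On whole reads, edgeR called 10 of the 16 mitotic loci, a larger share than of all tested loci. Of the replication loci, 5 were called higher and 7 lower in the libraries labelled OsglHAT1-OE than in those labelled GW6a-4.6 (median -0.02, or 0.12 under median-ratio scaling). Leaving out GW6a-4.6 replicate 3 brought the number called to 5, and leaving out its replicate 2, or OsglHAT1-OE replicate 2, to 7. Of the mitotic loci, 1 was called higher and 4 lower (median -0.16, or -0.01 under that scaling), and leaving out either of those replicate 2 libraries brought the number called to 3. These lists were compared with the histones by counts and medians only.

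The summed level of the meristem markers also differed between the groups. The 5 meristem genes summed to 281 to 352 in the libraries labelled OsglHAT1-OE, 411 to 430 in those labelled GW6a-4.6 and 204 to 219 in Nipponbare, so both lines stood above Nipponbare without overlap, as the histones did, but in another order. OSH15 (Os07t0129700-01) measured 101, 103 and 80.8 in the libraries labelled OsglHAT1-OE, 179, 149.7 and 177 in those labelled GW6a-4.6 and 50.2 and 47.2 in Nipponbare. OSH6 (Os01t0302500-01) measured 31.9, 34.7 and 22.7 in the libraries labelled OsglHAT1-OE, 43.9, 40.7 and 50.3 in those labelled GW6a-4.6 and 43.3 and 39.2 in Nipponbare. Against Nipponbare, OSH1, OSH15 and OSH43 were called higher in each line, and OSH6 was called lower in the libraries labelled OsglHAT1-OE (log2 change -0.48, adjusted p = 0.0104). That was 60% of the 5 genes called higher in each line, where 22.8% (OsglHAT1-OE) and 26.7% (GW6a-4.6) of all tested loci were. Leaf markers summed to 3163 to 3804, 2541 to 3199 and 2875 to 3216 in the same order of groups. Of 22 leaf markers tested, 6 were called higher and 1 lower in the libraries labelled OsglHAT1-OE than in Nipponbare and 4 higher and 3 lower in those labelled GW6a-4.6. The shares called higher, 27.3% and 18.2%, were near the 22.8% and 26.7% of all tested loci. The shares called lower, 4.55% and 13.6%, were below the 29.7% and 19.5% of all tested loci. At 0 in every library were 2 of the 25 listed. The part of meristem content or of leaf tissue in the histone result was not tested.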

How the data were processed

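The authors deposited 1 signal value for each transcript model and library, which the file headers name RPM. Bowtie, edgeR and the build IRGSP-1.0 are named in the submitters' processing notes, with no versions or roles, and how reads with several alignments were counted is not given in the sources used here. With the smallest positive value of each library taken as 1 read, 100% of all values in every library were whole multiples of it (tolerance 0.01). Whole reads were recovered on that basis. The table held 43481 models at 36819 loci.

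From the deposited signal, 1 model per locus was kept (highest mean), 31487 loci that reached a value of 1 in 2 or more libraries were tested, and log2(value + 1) was fitted with limma 3.58.1 (trend, R 4.3.3) over all 8 libraries, with Benjamini-Hochberg adjusted p under 0.05 as the call. Fold changes on that scale understate the change of low genes, and ratios in the text are of group mean values. The script was tested on simulated data. Alternatives were edgeR 4.0.16 and DESeq2 1.42.0 on whole reads, other pseudocounts (0.5, 0.1), filters, scalings, model choices, a replicate block and each library left out. On whole reads edgeR called 8952 loci higher and 8692 lower for OsglHAT1-OE against Nipponbare, 8063 and 7598 for GW6a-4.6 against Nipponbare, and 6063 and 5854 for OsglHAT1-OE against GW6a-4.6.

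The members, the related lists and the tests were chosen with earlier results of these data known. Named members were the 3 with the highest mean in each class, annotated variants, those that fell or were not called against Nipponbare, the 3 largest log2 changes per line and up to 4 called each way between the lines by smallest adjusted p, plus the 2 called loci with the smallest adjusted p per related list and line. Members described for their position on a chromosome and further chaperone loci were chosen after their values were seen. The related lists were matched to annotation text, with whole-word matching brought in after unrelated names had been seen to match, and the chaperone list still holds a HIRA-interacting protein and HMGd1. No sequence is shown.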

Additional observations from a re-analysis of the deposited data

Results flagged for a closer look

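A signal lay in 3 loci that the membership rule leaves out although their annotation names a histone, because their wording lacks "histone" directly before the class. Os03t0743400-01 ("H2A protein") averaged 695 ± 48.6 in the libraries labelled OsglHAT1-OE, 632 ± 33.9 in those labelled GW6a-4.6 (SD, n = 3 each) and 489 ± 13.4 in Nipponbare (SD, n = 2). Os06t0160100-00, annotated with both H3 and H4, averaged 257 ± 21.5, 173 ± 13.2 and 45.4 ± 2.24, and Os07t0545400-01 ("Protein H2A") 187 ± 23.4, 158 ± 7.45 and 114 ± 6.93. Against Nipponbare all 3 were called higher by limma, by log2 changes of 0.51, 2.47 and 0.71 in the libraries labelled OsglHAT1-OE and 0.37, 1.91 and 0.48 in those labelled GW6a-4.6. Counted with the members, in an alternative chosen after seeing the data, the loci called higher would be 54 (OsglHAT1-OE) and 51 (GW6a-4.6) against Nipponbare.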

How the results depend on the processing

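The count of core histone loci called higher stayed within 46 to 51 for GW6a-4.6 against Nipponbare, 47 to 54 for OsglHAT1-OE against Nipponbare and 35 to 48 for OsglHAT1-OE against GW6a-4.6 over 23 alternatives. The single lower call for GW6a-4.6 became 0 with pseudocount 0.5 or 0.1, a filter at 5, edgeR with or without the filter, DESeq2, a fit of only the groups compared, summed models, the replicate block and with only the members at 1 or more in every library, and ranged from 0 to 1 when a library was left out. That for OsglHAT1-OE became 0 with a filter at 5 or only those members and ranged from 0 to 1 when a library was left out. For OsglHAT1-OE against GW6a-4.6, all loci called higher numbered 5889 (median-ratio), 6169 (quantile), 6063 and 6172 (edgeR with and without the filter) and 5045 (DESeq2), with 1588 to 3257 when a library was left out. Loci called lower there numbered 5190 (quantile) and 5107 (DESeq2). The number of chaperone loci called there (2) was 1 with pseudocount 0.1, no filter or only the groups compared, 5 (median-ratio), 4 (quantile and DESeq2) and 6 (edgeR, both filters), with 0 to 2 when a library was left out. That against Nipponbare for GW6a-4.6 (8) was 4 to 8 when a library was left out. Replication loci called between the lines (12) were 5 to 12, and mitotic loci (5) were 9 (median-ratio and quantile), 10 (edgeR, both filters) and 3 to 7 when a library was left out. The ratio of OsglHAT1-OE to GW6a-4.6 under median-ratio scaling was 1.51 for the H2B sum, 1.45 for H3 and 1.55 for H4, against 1.36, 1.31 and 1.39 as deposited. With the models of a locus summed, the H3 ratio to Nipponbare was 2.38 for OsglHAT1-OE and 1.88 for GW6a-4.6, since further models of H3 loci then enter the sum. Apart from fewer tested loci under stricter filters, the cause of these moves was not tested.

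Single loci kept their direction and call in 4148 of the gene-level values, gained the call in 87 and lost it in 64. Another 24 changed sign, none of them called under either setting. Leaving out a library gave, for GW6a-4.6 against Nipponbare, -0.27 to 0.062 at Os03t0144700-00 (0.065 with the replicate block) and -0.113 to 0.543 at Os08t0289266-00, and for OsglHAT1-OE against Nipponbare -0.299 to 0.357 at Os08t0289266-00. Between the lines it gave -0.46 to 0.086 at Os08t0289266-00 (0.086 under quantile normalization), -0.087 to 0.352 at Os03t0721900-00, -0.188 to 0.629 at Os04t0212700-00, -0.049 to 0.082 at Os05t0461400-02 (-0.003 under quantile normalization) and -0.035 to 0.027 at Os04t0459700-02. The last was 0.150 (median-ratio), 0.141 (quantile), 0.157 and 0.159 (edgeR with and without the filter) and 0.151 (DESeq2).

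Same-numbered libraries showed little joint deviation (correlations -0.0026 to 0.065 across genes), and 1 of 3 GW6a-4.6 libraries correlated best with its own number. With so few libraries per group, this cannot tell whether same-numbered libraries share a batch. With the replicate block, 48 members were called higher and 0 lower for GW6a-4.6 against Nipponbare. Members under a value of about 0.6, worth 3 reads in the shallowest libraries, could not be compared at this depth.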
